A study of Salvelinus alpinus with 144 samples.

Results

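Small RNA of SBxPL embryos was compared between 150 and 200 τs. SBxPL is the hybrid of Arctic charr (Salvelinus alpinus) with a mother of the small benthic morph (SB) and a father of the planktivorous morph (PL) of Thingvallavatn, and τs, the tau-somite unit, is a measure of embryonic age that corrects for temperature. Members were chosen by label alone: 18 of the 72 small RNA libraries carry this cross-type, 9 at 200 τs and 9 at 150 τs, and each is 1 whole embryo. At each time point the 9 embryos were 3 siblings, lettered A, B and C, from each of the families H1505, H1506 and H1507, and the letter is also the sequencing batch (1, 2 and 3). The parents were wild fish, the embryos of all families shared 1 hatching tray at about the same cold temperature, and no treatment was applied. The pharyngeal skeleton begins to form at 150 τs, and most cartilages of the head are present at 200 τs. The deposited table holds 53327 rows, each a mature miRNA on 1 precursor from any species in miRBase. Of the 1400 rows named for zebrafish (dre-) or Atlantic salmon (ssa-), 1116 had at least 10 reads over the 72 libraries and gave 783 entries after rows with identical counts had been used once. These entries belong to 127 families by miRNA number, and 41 of the 783 had under 10 reads in the SBxPL libraries (1 had 0).

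MicroRNAs are short RNAs cut in 2 steps from hairpin precursors, first in the nucleus by Drosha with its partner Dgcr8 and then in the cytoplasm by Dicer. 1 arm of the hairpin, called 5p or 3p for the end it comes from, is usually kept by an Argonaute protein and guides it to mRNAs that pair with its seed, while the other arm is mostly degraded. In vertebrate embryos some families are made almost only in 1 tissue, such as miR-1 and miR-133 in muscle and miR-122 in liver, others fall as cells stop dividing, and let-7 accumulates as cells mature.

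Counts summed over the 783 entries ranged from 1726138 to 3514225 per library at 150 τs and from 1584907 to 3163041 at 200 τs. A read counts on every entry that it matches, so these sums are of entries and not of reads, and near-identical entries (the zebrafish and salmon names of 1 miRNA, or letters of a family) hold many of the same reads. Levels below are in CPM, which is the count scaled to a common library sum with trimmed-mean (TMM) factors, and 10 CPM was 23.5 counts in a library of median sum. Batch moved with level in these libraries. The scaling factors of batch 3 were 1.21 to 1.38 and those of batches 1 and 2 were 0.78 to 1.06. Deviations from the mean of the time point correlated at 0.457 on average between families of 1 letter and at -0.293 between families of different letters. Batch was a term of the model, as in the study's methods. Each batch holds 3 libraries of each time point. The library of H1505 C at 150 τs had the highest miR-21 and miR-146a-3p and the lowest miR-122 of its group. Without it 391 entries were called, within the range of 378 to 398 found on leaving out any 1 library. The label of a whole embryo was met by markers of every tissue looked for. At 150 τs the mean was 7474 CPM for miR-9-5p (nervous system), 906 for miR-133a-3p (muscle), 349 for miR-140-3p (cartilage), 479.9 for miR-451 (red blood cells), 2131 for miR-205-5p (epithelia) and 68.7 for miR-122 (liver). In whole embryos a smaller share of cells of a type and less RNA per cell cannot be told apart.

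Between the time points 32 of 46 let-7 entries rose, beside 23.6% of all entries. By the most abundant entry of each family, 3 of 4 muscle families rose, beside 31.5% of all families. Of 7 families of cartilage and mesenchyme 4 rose and 1 fell. Of 7 of skin and other epithelia, with miR-200a, miR-200b and miR-200c counted apart, 4 rose and 2 fell. All 10 measured families of early embryos and dividing cells fell (25.2% of all families), miR-430 the most. By edgeR's quasi-likelihood test with batch as a term, 403 of the 783 entries (51.5%) passed an adjusted p under 0.1, 185 of them higher at 200 τs (23.6%) and 218 lower (27.8%). These came from 92 of the 127 families. Most changes were small: the median size among the called entries was 0.55 on the log2 scale, 29 were at least 2-fold higher and 35 at least 2-fold lower. All 9 libraries at 200 τs lay above all 9 at 150 τs in 35 entries (4.47%) and below them in 20 (2.55%). Within each of the 3 batches taken separately, the 3 libraries at 200 τs were all above the 3 at 150 τs in 79 entries (10.1%), and all below in 68 (8.68%). Counting 1 entry per family, the most abundant, 40 of 127 rose (31.5%) and 32 fell (25.2%). Siblings share their parents, and p-values over embryos treat them as separate. With the 3 siblings of a family summed at each time point, 342 entries were called. That fit set 3 sums against 3 from the same 3 families and did not use their pairing. Within batches 1, 2 and 3 taken singly, 298, 212 and 172 entries were called.

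**Figure D1:**
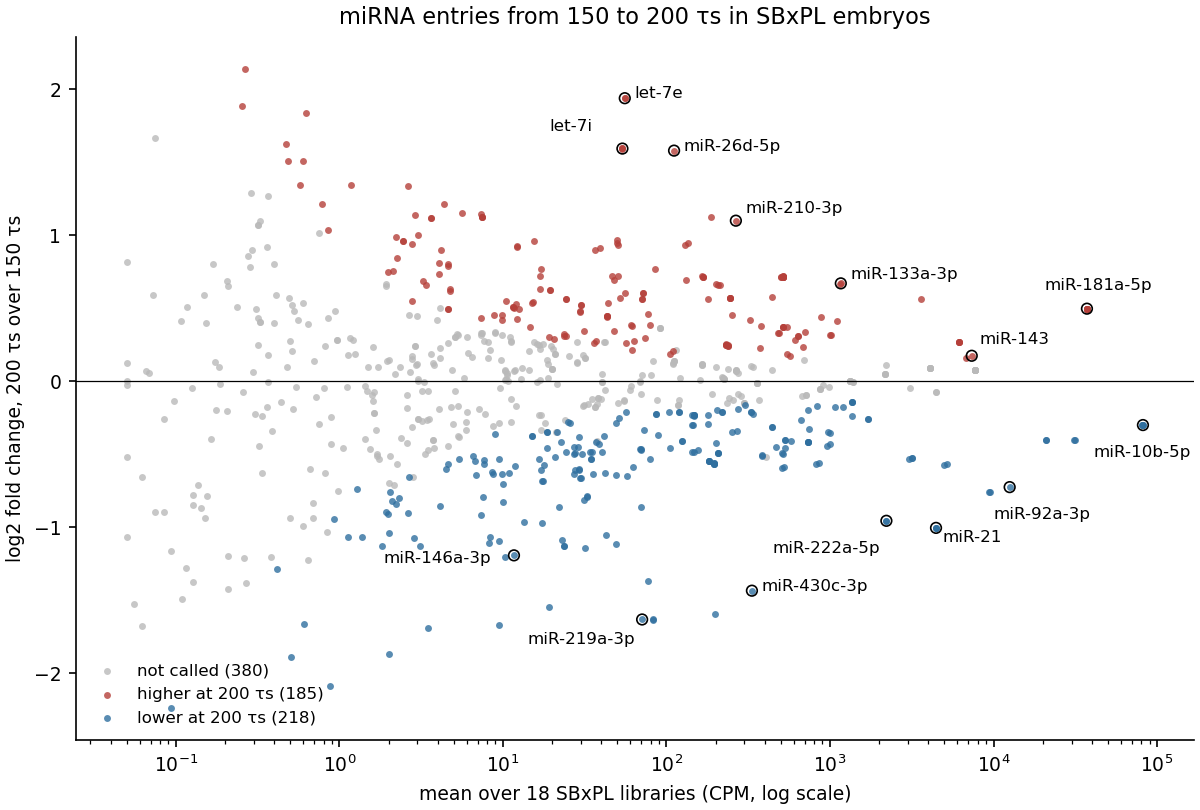
Log2 fold change from 150 to 200 τs (vertical axis, above 0 is higher at 200 τs) against mean level over the 18 SBxPL libraries (horizontal axis, CPM on a log scale, entries under 0.05 CPM drawn at 0.05). Each point is 1 of 783 entries, coloured where the adjusted p was under 0.1 (185 higher, 218 lower). Circled points are named in the text, with let-7e at 1.94 and miR-219a-3p at -1.63.

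The 10 most abundant families had log2 fold changes between -1.004 and 0.56. The first was miR-10b-5p, whose gene lies in a Hox cluster, at between 45926 and 139671 CPM at 150 τs (median 96604) and between 40912 and 98803 CPM at 200 τs (median 84564). This was a median of 8.67% of the summed counts at 150 τs and 7.05% at 200 τs. The time points overlapped, and the log2 fold change was -0.30 ± 0.09 (± SE here and below, adjusted p = 0.00977). Within batches 1, 2 and 3 the log2 fold change of miR-10b-5p was -0.02, -0.59 and -0.22. Its ratio of means of 200 to 150 τs was 0.68 in H1505, 0.79 in H1506 and 0.95 in H1507. Second was miR-181a-5p, abundant in brain and lymphoid cells of other vertebrates, at between 25266 and 35369.9 CPM at 150 τs (median 30212) and between 34547 and 59197 CPM at 200 τs (median 41652). The overall ranges overlapped, yet within each batch all 3 libraries at 200 τs were higher, and the log2 fold change was 0.50 ± 0.07 (adjusted p = 1.63e-06). The share of miR-181a-5p went from 3.04% to 4.38% of the summed counts. Families that follow in level were miR-92a-3p and miR-21, both lower at 200 τs, and miR-143 and miR-182-5p, both higher. For miR-9-5p (log2 fold change 0.07 ± 0.09), miR-192 (-0.08 ± 0.07), miR-26a-5p (0.09 ± 0.06) and miR-30d-5p (-0.05 ± 0.06) no change was called, with adjusted p between 0.251 and 0.545. The sign for miR-30d-5p turned under another scaling.

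The let-7 family was first known from the timing of larval stages in nematodes and is held back in stem cells by Lin28. It rose in 32 of its 46 entries and fell in 1, beside 23.6% and 27.8% of all entries. Its most abundant letter, let-7a, was between 290.3 and 486 CPM at 150 τs (median 377) and between 564 and 827 CPM at 200 τs (median 597). Every library at 200 τs was above every library at 150 τs, and the mean was 1.63-fold higher (log2 fold change 0.72 ± 0.08, adjusted p = 1.74e-07). The fold change was not the same for every letter. let-7e was between 10.7 and 36.7 CPM at 150 τs (median 21.2) and between 56.6 and 115 CPM at 200 τs (median 93.3), and let-7i was between 11.5 and 36.5 CPM at 150 τs (median 26.7) and between 50.9 and 118 CPM at 200 τs (median 76.4). Both were scarce at 150 τs and had no overlap between time points. Their log2 fold changes of 1.94 ± 0.19 and 1.59 ± 0.17 (adjusted p = 1.94e-08 and 4.29e-08) were 3.88-fold and 3.01-fold in the means, and no other miRNA of at least 10 CPM had a larger rise. let-7j rose by 0.77 ± 0.13, let-7d-5p by 0.57 ± 0.09 and let-7h by 0.56 ± 0.14 on the log2 scale, and let-7g by 0.24 ± 0.09 (adjusted p = 0.0296). For let-7c-5p, whose medians went from 109 to 116 CPM, the log2 fold change was 0.14 ± 0.08 and was not called (adjusted p = 0.152), but it was called without H1507 A at 200 τs (0.17). The differences between letters were not tested, and letters such as e and i or a and c differ in few bases, so that reads may be shared. let-7e, let-7i, let-7j, let-7d-5p, let-7h, let-7g and let-7c-5p were singled out after their values were seen. The list for developmental timing also held miR-100-5p, with a log2 fold change of -0.46 ± 0.11 (adjusted p = 0.0013), miR-99 (-0.21 ± 0.08, adjusted p = 0.0371, and 0.01 within batch 3) and miR-125a, the relative of nematode lin-4 (0.00 ± 0.07, not called). Precursors of miR-100 or miR-99 and miR-125 lie beside let-7 genes in other animals, and positions in charr were not examined here.

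All 10 measured families of the list for early embryos and dividing cells fell in their most abundant entry, beside 25.2% of all families, with a median log2 fold change of -0.50 beside 0.08 for all families. Of their 93 entries, 75 fell and 0 rose, beside 27.8% and 23.6% of all entries. miR-430, which clears maternal mRNAs in young zebrafish embryos, was led by miR-430c-3p at between 294 and 655 CPM at 150 τs (median 424) and between 134 and 222 CPM at 200 τs (median 172). Every library at 200 τs was below every library at 150 τs, and the log2 fold change was -1.43 ± 0.13 (adjusted p = 7.97e-09). miR-430a-3p (ssa-, medians 283 to 96.96 CPM) and miR-430b-3p (104 to 45.2 CPM) had log2 fold changes of -1.60 ± 0.19 and -1.37 ± 0.16. The groups of miR-430b-3p did not overlap and those of miR-430a-3p met only at their edges. Both were named after their values were seen.

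The miR-17 to miR-92 cluster, a single transcript in vertebrates that Myc drives in dividing cells, fell in every member of the list. For miR-17a-5p the libraries were between 197 and 279.9 CPM at 150 τs (median 226) and between 119 and 193 CPM at 200 τs (median 153). These did not overlap, and the log2 fold change was -0.56 ± 0.08 (adjusted p = 3.13e-06). The most abundant member, miR-92a-3p, was between 8618 and 20578 CPM at 150 τs (median 17842) and between 6048 and 12447 CPM at 200 τs (median 9939.5). Its level depended on the batch, with means of 19975, 18399 and 9016 CPM in batches 1, 2 and 3 at 150 τs and 10184, 11475 and 6283 at 200 τs. The time points overlapped across batches and not within any of them (log2 fold change -0.72 ± 0.08, adjusted p = 1.11e-07). The cluster's other members were unequal: miR-20a-5p changed by -0.55 ± 0.08, miR-18a-5p by -0.53 ± 0.09 and miR-19b-3p by -0.16 ± 0.08 on the log2 scale (adjusted p = 0.0927). The log2 fold change was 0.10 within batch 1, and the call was lost without any 1 of 9 libraries, which gave log2 fold changes of -0.12 to -0.17: at 150 τs H1505 B, H1506 B, H1506 C and H1507 C, and at 200 τs H1505 B, H1505 C, H1506 B, H1507 B and H1507 C. In the related group in an intron of mcm7 in other vertebrates, miR-93 changed by -0.47 ± 0.10 (adjusted p = 0.000345). miR-106a-5p, also on the list, changed by -0.28 ± 0.12 (adjusted p = 0.0625). The call of miR-106a-5p was lost without H1505 B, H1505 C, H1506 B or H1507 A at 150 τs, or H1506 B at 200 τs, with log2 fold changes of -0.24 to -0.26. miR-25-3p of the mcm7 group, named after its value was seen, changed by -0.36 ± 0.07. The miR-130, miR-301 and miR-454 families share a seed. miR-130c-3p changed by -0.24 ± 0.06, miR-301c-3p by -0.32 ± 0.07, and miR-454b and miR-301b-3p, both without overlap and added after their values were seen, by -0.51 ± 0.07 and -0.86 ± 0.12. miR-427 and miR-302, known from frogs and mammals, had no entry.

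**Figure D2:**
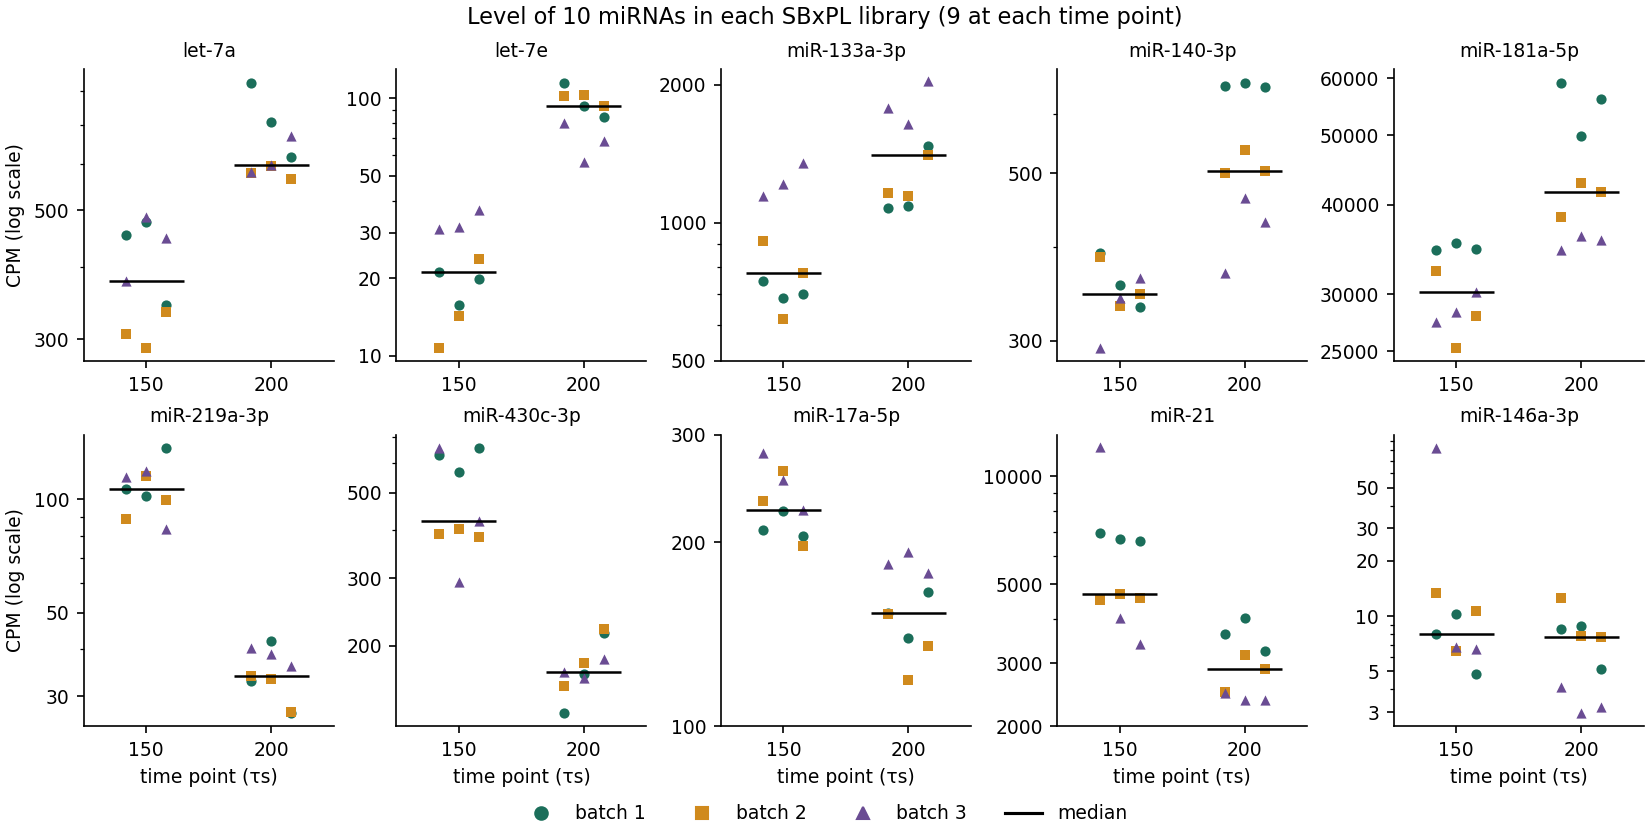
Level of 10 miRNAs in every SBxPL library, in CPM on a log scale, at 150 and 200 τs. Symbols mark the sequencing batch, families H1505, H1506 and H1507 are set from left to right within a time point, and bars are medians of 9. let-7a, let-7e, miR-219a-3p, miR-430c-3p and miR-17a-5p do not overlap between time points, and 1 library at 150 τs stands at 82.5 CPM for miR-146a-3p.

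Of the 4 muscle families with an entry, 3 rose and 0 fell (31.5% and 25.2% of all families), and the median log2 fold change was 0.66. miR-1 promotes muscle differentiation and was between 15.6 and 55.1 CPM at 150 τs (median 35.8) and between 33.7 and 95.4 CPM at 200 τs (median 69.5). It was higher at 200 τs in 9 of 9 pairs of libraries matched for family and batch, with a log2 fold change of 0.93 ± 0.13 (adjusted p = 3.14e-06). miR-133a-3p, made from the same transcripts as miR-1, was between 617 and 1354 CPM at 150 τs (median 776) and between 1078 and 2038 CPM at 200 τs (median 1405). Batch 3 was highest at both time points, the ranges overlapped over all batches but in none of the 3, and the log2 fold change was 0.67 ± 0.08 (adjusted p = 3.61e-07). miR-206-3p of skeletal muscle was between 90.8 and 239 CPM at 150 τs (median 159) and between 151 and 382 CPM at 200 τs (median 259). It too overlapped over all libraries and in no single batch (log2 fold change 0.66 ± 0.11, adjusted p = 1.29e-05). The 2 forms of miR-499, which is made from an intron of a myosin heavy chain gene, had different values. For miR-499a-5p the range was between 6.06 and 17.9 CPM at 150 τs (median 12.6) and between 11.03 and 30.8 CPM at 200 τs (median 22.01) and the log2 fold change 0.72 ± 0.17 (adjusted p = 0.000846). miR-499b-5p, the more abundant, had 0.08 ± 0.13 and was not called (adjusted p = 0.639). All 9 matched pairs were higher for miR-499a-5p, although the groups overlapped. Family H1507 had the largest ratio of means for miR-499a-5p, 2.43, beside 1.56 in H1505 and 1.16 in H1506. No miR-208 entry was measured.

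Among the 7 families of cartilage, bone and mesenchyme, 4 rose and 1 fell (31.5% and 25.2% of all families). miR-140-3p, from an intron of Wwp2 and concentrated in chondrocytes, was between 294 and 392 CPM at 150 τs (median 346) and between 369 and 660.1 CPM at 200 τs (median 504). Only 1 library at 200 τs (H1505 C) was within the range of 150 τs, and the log2 fold change was 0.58 ± 0.08 (adjusted p = 1.63e-06). miR-455-5p, from an intron of the cartilage collagen gene Col27a1, was between 304 and 377 CPM at 150 τs (median 325) and between 404 and 488 CPM at 200 τs (median 415). Here the time points did not overlap (log2 fold change 0.38 ± 0.06, adjusted p = 2.18e-05). miR-199-3p of mesenchyme changed by 0.31 ± 0.07 and its neighbour miR-214-5p by 0.04 ± 0.09, the latter not called. The smooth muscle pair miR-143 and miR-145, which share a transcript in other vertebrates, moved in opposite directions. miR-143 was between 4605 and 8386 CPM at 150 τs (median 7455) and between 5439 and 9644 CPM at 200 τs (median 8217) and rose by 0.17 ± 0.06 on the log2 scale, with wide overlap and 8 of 9 matched pairs higher (adjusted p = 0.0206). miR-145-5p was between 14.4 and 65.03 CPM at 150 τs (median 35.02) and between 12.8 and 39.3 CPM at 200 τs (median 20.1), lower in 8 of 9 matched pairs (log2 fold change -0.60 ± 0.16, adjusted p = 0.00369). Its other arm miR-145-3p, named after its value was seen, had -0.49 ± 0.13. miR-29, a repressor of collagens, was scarce, with miR-29a at medians of 2.69 to 2.13 CPM (log2 fold change -0.32 ± 0.28, not called).

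In the nervous system list 4 of 12 families rose, 1 fell and 7 were not called (31.5% and 25.2% of all families rose and fell), with a median log2 fold change of 0.18. The fall was the largest among the most abundant called entries of each family. miR-219, required for oligodendrocytes to mature in the mouse, was led by miR-219a-3p at between 83.3 and 137 CPM at 150 τs (median 107) and between 27.04 and 42.00 CPM at 200 τs (median 33.98). Even the highest library at 200 τs was below the lowest at 150 τs, the mean was 3.10-fold lower at 200 τs, and the log2 fold change was -1.63 ± 0.11 (adjusted p = 5.14e-11). All 7 miR-219 entries fell, beside 27.8% of all entries. Among them was miR-219a-5p (log2 fold change -1.08 ± 0.17), whose medians went from 30.3 to 14.4 CPM. miR-338, the other miRNA known for this role in the mouse and not in the list, rose. It was between 6.45 and 20.2 CPM at 150 τs (median 12.02) and between 14.00 and 29.6 CPM at 200 τs (median 20.5), higher in 9 of 9 matched pairs, with a log2 fold change of 0.77 ± 0.15 (adjusted p = 0.000129). Of the rises in the list, miR-132-5p, from an activity-dependent miRNA of neurons, was between 3.61 and 20.1 CPM at 150 τs (median 6.62) and between 12.8 and 24.1 CPM at 200 τs (median 14.6). The ranges overlapped, the highest library at 150 τs was H1505 C, and 8 of 9 matched pairs were higher (log2 fold change 0.92 ± 0.22, adjusted p = 0.00116). The other rises were miR-7a-5p (0.53 ± 0.15), miR-218a of motor neurons (0.25 ± 0.08) and miR-129-3p (0.54 ± 0.23, adjusted p = 0.0553). miR-129-3p was at -0.21 within batch 2, and without H1507 A at 150 τs or H1507 B at 200 τs it was not called (0.47 and 0.46). The other arm, miR-129-5p, was scarce and did not overlap, at between 2.77 and 6.70 CPM at 150 τs (median 4.30) and between 6.74 and 11.9 CPM at 200 τs (median 10.5), with a log2 fold change of 1.13 ± 0.18 (named after its value was seen). miR-9-5p and miR-128-3p, abundant in neural tissue, and miR-137-3p, miR-138-5p, miR-153a-3p and miR-34a had log2 fold changes between -0.13 and 0.33 and were not called. Of the list's 98 entries 22 rose and 15 fell, beside 23.6% and 27.8% of all entries. Of the 23 miR-9 entries, 0 rose and 5 fell, beside the same shares. Without 1 library, miR-153a-3p was called at -0.21 (without H1505 B at 150 τs) and miR-137-3p at 0.43 or 0.42 (without H1505 C or H1506 B at 150 τs). For the neuronal miR-124, the lead entry was the 5p arm (-0.16 ± 0.12, not called). The 3p arm, which carries its known activity and which was chosen after its value was seen, was between 14.4 and 44.2 CPM at 150 τs (median 18.8) and between 20.9 and 53.6 CPM at 200 τs (median 36.6) and rose by 0.52 ± 0.14 on the log2 scale (adjusted p = 0.0034).

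For eye and sensory organs 2 of 5 families rose and 0 fell (31.5% and 25.2% of all families). Both are from 1 cluster active in photoreceptors and hair cells. miR-182-5p was between 2301 and 3516 CPM at 150 τs (median 2955) and between 2814 and 5467 CPM at 200 τs (median 4584), higher in 9 of 9 matched pairs and without overlap within any batch, with a log2 fold change of 0.56 ± 0.07 (adjusted p = 1.43e-06). miR-183-5p rose by 0.37 ± 0.08 on the log2 scale (adjusted p = 0.000549), and the third member, miR-96-5p, had 0.08 ± 0.17 at medians of 9.93 to 10.7 CPM and was not called. miR-204-5p of pigment epithelium and lens (-0.04 ± 0.08) and miR-184 of the cornea and lens (0.11 ± 0.07) were not called either. miR-184 differed more between batches than between time points, at 3125, 2425 and 865 CPM in batches 1 to 3 at 150 τs, and was called without H1505 B at 150 τs (0.15). miR-211 had no entry.

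**Figure D3:**
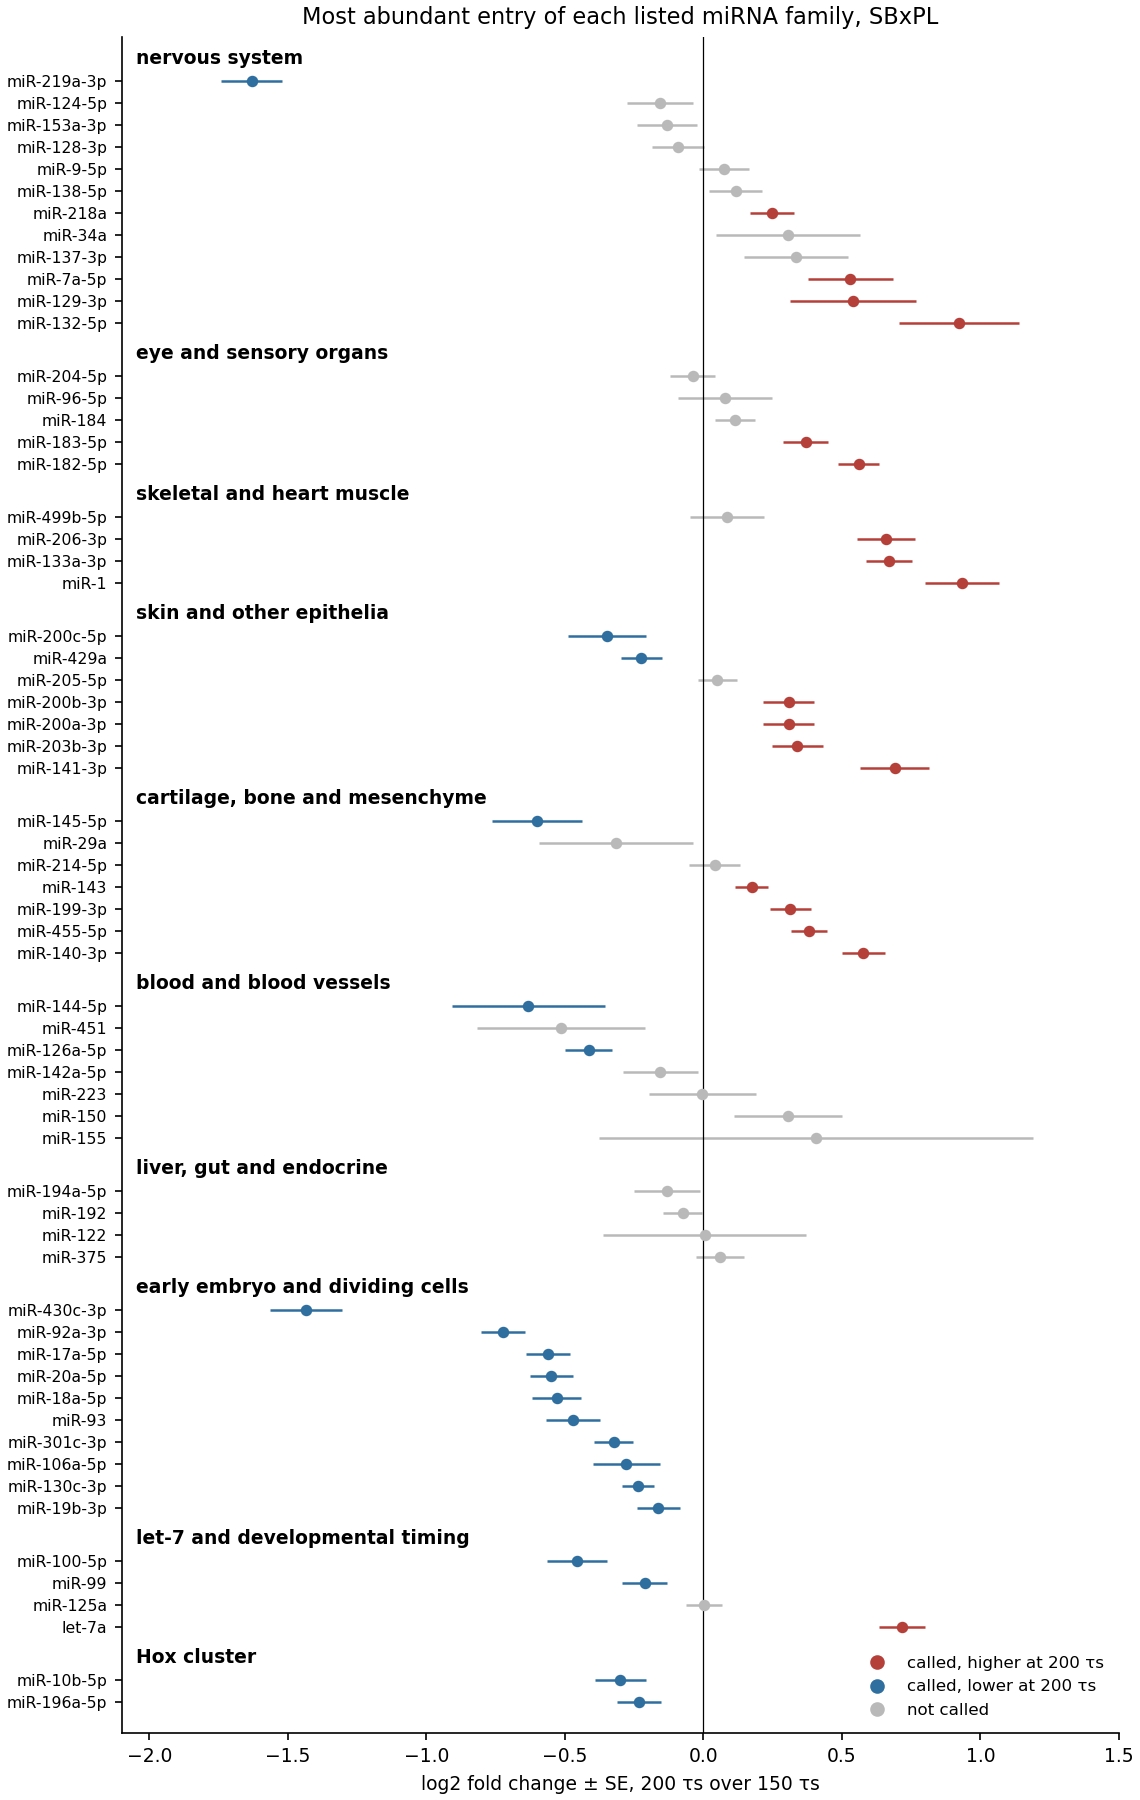
Log2 fold change ± SE from 150 to 200 τs of the most abundant entry of each listed family that had an entry (10 lists), SBxPL. Colours mark entries with an adjusted p under 0.1, higher or lower, and grey those not called. All 10 entries of the list for early embryos and dividing cells lie below 0, and miR-219a-3p lies farthest from 0 at -1.63.

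Of the 7 families of skin and other epithelia, 4 rose and 2 fell (31.5% and 25.2% of all families). Of their 36 entries 5 rose and 9 fell, beside 23.6% and 27.8% of all entries. This list counts miR-200a, miR-200b and miR-200c as separate families, whereas the shares of all families are by miRNA number and hold miR-200 once. miR-141-3p, which with miR-200 keeps cells epithelial by repressing Zeb factors, was between 44.1 and 199 CPM at 150 τs (median 75.5) and between 72.8 and 323 CPM at 200 τs (median 135). Batch 1 was highest at both time points, and the log2 fold change was 0.69 ± 0.12 with 9 of 9 matched pairs higher (adjusted p = 5.77e-05). miR-200a-3p and miR-200b-3p hold the same reads in large part, and miR-200a-3p rose by 0.31 ± 0.09 on the log2 scale (adjusted p = 0.00809). miR-203b-3p of differentiating skin rose by 0.34 ± 0.09, and miR-205-5p was not called (0.05 ± 0.07). miR-429a changed by -0.22 ± 0.07 (adjusted p = 0.0162). Of the 2 entries of miR-200c, 1 rose and 1 fell. The more abundant, counted for the family, was its 5p arm, scarce at a median of 19.8 CPM at 150 τs. It had a log2 fold change of -0.35 ± 0.14 (adjusted p = 0.0453). That call was lost without H1505 C at 150 τs or H1506 C at 200 τs, at -0.27 and -0.29.

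Blood and vessel families gave 2 falls and 0 rises among 7, beside 25.2% and 31.5% of all families. miR-126a-5p of endothelial cells was between 530.1 and 1107 CPM at 150 τs (median 873) and between 386 and 809.9 CPM at 200 τs (median 676), overlapping between time points and lower in 8 of 9 matched pairs (log2 fold change -0.41 ± 0.09, adjusted p = 0.000302). Of the 7 miR-126 entries 6 fell, beside 27.8% of all entries. The erythroid pair miR-144 and miR-451 varied widely between embryos at 150 τs. miR-144-5p was between 13.98 and 115 CPM at 150 τs (median 35.1) and between 16.4 and 39.4 CPM at 200 τs (median 27.5), and miR-451 was between 133 and 1175 CPM at 150 τs (median 375) and between 177 and 629 CPM at 200 τs (median 293). Both ranges at 200 τs lay inside those at 150 τs. For miR-144-5p the log2 fold change was -0.63 ± 0.28 (adjusted p = 0.0653), a call lost without H1505 C (-0.45), H1506 A (-0.38) or H1506 B (-0.47) at 150 τs, or without H1506 A (-0.60), H1506 C (-0.59) or H1507 A (-0.56) at 200 τs. For miR-451 it was -0.52 ± 0.30, not called (adjusted p = 0.179), and it passed without H1507 B at 150 τs (-0.67). miR-142a-5p, miR-223, miR-150 and miR-155, known from white blood cells, had log2 fold changes between -0.16 and 0.40 and were not called, and miR-155 was under 1.5 CPM in every library.

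Of the 4 families of liver, gut and endocrine tissue, 0 were called in their lead entry, beside the same shares. miR-122, nearly specific to liver in vertebrates, was between 23.8 and 101 CPM at 150 τs (median 67.8) and between 2.67 and 114 CPM at 200 τs (median 70.6), with a log2 fold change of 0.00 ± 0.37. The error is wide. At 200 τs H1505 A and H1505 C stood at 2.67 and 6.88 CPM, far below the other 7 libraries. miR-192 (-0.08 ± 0.07), miR-194a-5p (-0.13 ± 0.12) and miR-375 of endocrine pancreas (0.06 ± 0.09) had smaller errors. In the Hox clusters both families fell (25.2% of all families), miR-10b-5p as given above and miR-196a-5p by -0.23 ± 0.08 as a log2 fold change (adjusted p = 0.0202). Of their 29 entries 21 fell and 0 rose, beside 27.8% and 23.6% of all entries. miR-215 and miR-615 had no entry.

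Other families made up the rest of the largest changes. miR-210-3p, induced by low oxygen through hypoxia-inducible factor in other vertebrates, had the largest rise among the most abundant called entries of each family (scarcer letters of let-7 and miR-26 rose more). It was between 64.1 and 318 CPM at 150 τs (median 168) and between 190.2 and 539.6 CPM at 200 τs (median 340.2). Levels differed by batch, with means of 155, 86.2 and 293 CPM at 150 τs and 330.3, 249 and 481 at 200 τs in batches 1, 2 and 3. The ranges overlapped over all libraries and did not within any batch (log2 fold change 1.099 ± 0.14, adjusted p = 8.78e-07). miR-101a, a repressor of the chromatin enzyme Ezh2 in mammals, was between 56.4 and 135 CPM at 150 τs (median 87.2) and between 138 and 235 CPM at 200 τs (median 171). There was no overlap (log2 fold change 0.94 ± 0.13, adjusted p = 1.57e-06). miR-190b-5p was between 15.6 and 34.4 CPM at 150 τs (median 28.5) and between 43.97 and 66.4 CPM at 200 τs (median 52.2), again without overlap, at 0.91 ± 0.13 (adjusted p = 2.9e-06), and miR-724, a miRNA of fishes, changed by 0.71 ± 0.10. 3 further miRNAs without overlap were picked out after their values were seen. miR-26d-5p was between 30.4 and 98.3 CPM at 150 τs (median 47.97) and between 124 and 198 CPM at 200 τs (median 162), with a log2 fold change of 1.58 ± 0.15, unlike the far more abundant miR-26a-5p. miR-216b-5p of the pancreas was between 20.96 and 45.7 CPM at 150 τs (median 37.8) and between 49.7 and 72.4 CPM at 200 τs (median 57.98), and its log2 fold change was 0.69 ± 0.12. miR-27b-3p, far more abundant, was between 765 and 1066 CPM at 150 τs (median 947) and between 1147 and 1411 CPM at 200 τs (median 1249), with 0.41 ± 0.07.

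Among the falls, miR-21, an abundant repressor of growth inhibitors, was between 3403 and 12065 CPM at 150 τs (median 4685) and between 2363 and 4012 CPM at 200 τs (median 2900.0). The highest library was H1505 C at 150 τs, and in each batch all libraries at 200 τs were below those at 150 τs (log2 fold change -1.004 ± 0.16, adjusted p = 1.59e-05). The ratio of means of 200 to 150 τs was 0.366 in H1505, 0.62 in H1506 and 0.584 in H1507. miR-222a-5p, of a family that represses the cell cycle inhibitor p27, was between 1830.0 and 4224 CPM at 150 τs (median 2879) and between 1018 and 2516 CPM at 200 τs (median 1446), lower in 9 of 9 matched pairs (log2 fold change -0.96 ± 0.08, adjusted p = 5.26e-10). Its 3p arm changed by -0.56 ± 0.09, and miR-221-3p, its cluster partner, by -0.47 ± 0.09 without overlap. Both were named after their values were seen. miR-33b-3p, from an intron of a Srebf gene, changed by -0.63 ± 0.18 (adjusted p = 0.00495) and miR-153a-5p by -0.63 ± 0.11 (adjusted p = 6.14e-05), while the major arm miR-153a-3p was not called. The value of miR-146a-3p, the minor arm of an immune-regulated miRNA, rested on 1 library. It was between 4.81 and 82.5 CPM at 150 τs (median 7.95) and between 2.96 and 12.5 CPM at 200 τs (median 7.67), and the top value came from H1505 C at 150 τs. Within batch 1 its log2 fold change was 0.02. The log2 fold change of -1.19 ± 0.50 over all libraries (adjusted p = 0.0534) became -0.31 without that library and was not called (adjusted p = 0.241). It was also lost without H1505 C (-1.03), H1506 C (-0.93) or H1507 C (-0.98) at 200 τs. Its 5p arm had 0.36 ± 0.20, not called, and 0.66 without H1505 C at 150 τs (adjusted p = 1.45e-05).

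In 9 families with called entries of at least 10 CPM, some entries rose and others fell: let-7, miR-101, miR-133, miR-141, miR-15, miR-181, miR-200, miR-203 and miR-206. In miR-101 the letters differed. miR-101b was between 10.2 and 43.6 CPM at 150 τs (median 26.7) and between 9.81 and 31.2 CPM at 200 τs (median 19.7), and its log2 fold change was -0.48 ± 0.16 (adjusted p = 0.016) beside the rise of miR-101a. In miR-15, miR-15a-5p changed by -0.45 ± 0.13, miR-15a-3p by -1.05 ± 0.16 and the scarcer miR-15d-5p by 0.32 ± 0.12. The entries in this paragraph other than miR-101a were chosen after their values were seen. In the other 7 families the entries that rose and those that fell included opposite arms of the hairpin. In miR-133 the letters differed as well: the fall was of miR-133b-5p. The log2 ratio of 3p to 5p of miR-133a changed by 0.19 ± 0.12 and was not called (limma adjusted p = 0.178). While miR-181a-5p rose, miR-181a-2-3p changed by -0.26 ± 0.07 on the log2 scale. miR-133b-5p also changed by -0.48 ± 0.15 and its 3p arm by 0.21 ± 0.11 (not called, but called without H1505 B at 150 τs at 0.31 or H1506 B at 200 τs at 0.28), and miR-200b-5p by -0.45 ± 0.11 beside its rising 3p arm. miR-141-5p (-0.29 ± 0.14) and miR-206-5p (-0.25 ± 0.12) were called at adjusted p of 0.0927 and 0.0922. The call of miR-141-5p was lost without any 1 of 9 libraries (H1505 C, H1506 B, H1506 C, H1507 A or H1507 B at 150 τs, H1506 B, H1506 C, H1507 A or H1507 C at 200 τs), at log2 fold changes of -0.23 to -0.30. That of miR-206-5p was lost without any 1 of 11 (H1505 B, H1506 B, H1506 C, H1507 A, H1507 B or H1507 C at 150 τs, H1505 A, H1505 B, H1506 B, H1506 C or H1507 A at 200 τs), at -0.20 to -0.25, and it turned to 0.08 within batch 1.

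Arms were compared directly, a comparison added after the values were seen. For 79 precursors with a mean of at least 20 reads in both arms, the log2 ratio of the major to the minor arm was taken within each library, where no scaling enters, and tested with limma with batch as a term. The ratio was higher at 200 τs in 37 precursors (46.8%) and lower in 11 (13.9%). Without regard to the test it was higher in 54 of 79, with a median difference of 0.29. The largest difference was that of let-7a, whose 5p arm is major. Its lowest, median and highest log2 ratios were 4.30, 4.69 and 5.64 at 150 τs and 5.38, 6.07 and 7.16 at 200 τs. The ranges met only at their edges, and the difference was 1.31 ± 0.21 (SE, adjusted p = 7.58e-05). For miR-206 the ratios of 3p to 5p were 0.63, 1.22 and 2.26 at 150 τs and 1.73, 2.39 and 2.90 at 200 τs (difference 0.92 ± 0.12, adjusted p = 1.22e-05). For miR-181a the 5p arm exceeded the 3p arm by 3.72, 4.10 and 4.43 at 150 τs and 4.37, 4.91 and 5.36 at 200 τs on the log2 scale, and the ranges met only at their edges (difference 0.76 ± 0.09, adjusted p = 9.3e-06). miR-141 (1.003 ± 0.14), miR-216b (1.05 ± 0.21), miR-92a (0.96 ± 0.25), miR-133b (0.89 ± 0.21) and miR-200b (0.78 ± 0.14) were others with a wider ratio. miR-146a also had one (1.21 ± 0.30), and its 150 τs values include the library of H1505 C. A narrower ratio was found for miR-200c (-0.82 ± 0.15), miR-124 (-0.70 ± 0.16), miR-9b (-0.65 ± 0.14), miR-222b (-0.61 ± 0.14), miR-219a (-0.60 ± 0.15), miR-1388, miR-430c, miR-100, miR-125a, miR-222a and miR-152. For miR-124 the ratios of 5p to 3p were -0.10, 0.68 and 1.90 at 150 τs and -0.83, -0.14 and 1.22 at 200 τs, that is, a median near equal arms at 200 τs. The change of this ratio for miR-140, in which both arms rose, was -0.03 ± 0.09 (adjusted p = 0.759). Precursors of 1 family share reads, such as miR-9 with miR-9a and miR-222a with miR-222b, and are not independent. Some opposite calls came from precursors with equal or close mean counts in 1 arm. Whether shared reads gave these calls was not tested. Mean 5p counts of miR-200c equalled those of miR-200a, where 5p is the minor arm and the ratio was wider (0.46 ± 0.13). Mean 3p counts of miR-9b and miR-9 were close (7422 and 7775), and 3p is the minor arm of miR-9, whose ratio was wider (0.62 ± 0.14). In the other cross-types the same comparison gave 29 wider and 11 narrower ratios in SBxSB, 32 and 8 in PLxPL and 31 and 8 in PLxSB.

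**Figure D4:**
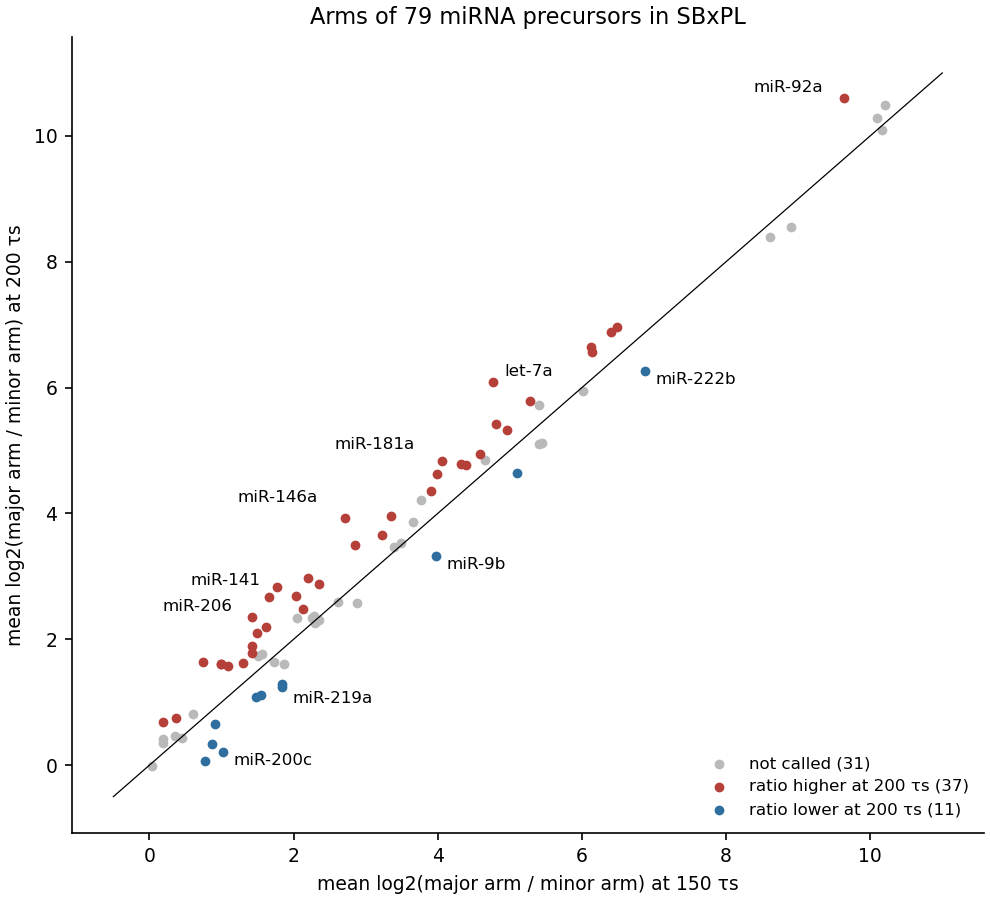
Mean log2 ratio of the major to the minor arm at 200 τs (vertical axis) against 150 τs (horizontal axis), 1 point for each of 79 precursors, over 9 SBxPL libraries at each time point. Points above the line of equality had a wider ratio at 200 τs, and colours mark an adjusted p under 0.1 (37 higher, 11 lower). let-7a lies 1.31 above the line and miR-200c, at -0.82, lies below it.

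The mRNA libraries of the same 18 embryos were read only for a list of 10 genes known to host miRNAs and 11 genes of miRNA processing, of which 4 were found by symbol. All 4 fell, beside 24.4% of the 40311 mRNAs tested. mcm7, a helicase subunit of DNA replication and host of miR-93 and miR-25 in other vertebrates, was at 177 to 267 CPM at 150 τs (median 217) and at 85.4 to 167 CPM at 200 τs (median 112). The time points did not overlap (log2 fold change -0.83 ± 0.11, edgeR adjusted p = 2.39e-06). drosha, the nuclear nuclease, was at 49.9 to 65.3 CPM (median 58.7) and then at 37.4 to 46.9 CPM (median 45.1), also without overlap (-0.40 ± 0.07, adjusted p = 3.55e-05). Its partner dgcr8 was at 21.0 to 29.7 CPM (median 24.7) and then 14.2 to 22.9 CPM (median 18.02), with some overlap (-0.47 ± 0.08, adjusted p = 8.23e-05). tarbp2, a partner of Dicer, went from 57.2 to 69.7 CPM (median 65.3) to 29.1 to 49.1 CPM (median 40.9), without overlap (-0.64 ± 0.09, adjusted p = 3.26e-06).

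Whether these changes differed from those of the other cross-types was tested in a fit of 71 libraries, the change in SBxPL minus the mean change of SBxSB, PLxPL and PLxSB, without the PLxSB library at 200 τs that failed (7948 summed counts). By edgeR's quasi-likelihood test 0 of 783 entries were called (0%), 27 had an unadjusted p under 0.05, and the smallest adjusted p was 0.892. DESeq2 also called 0. The cross-types share batches and no embryos. Over the 100 families with a lead entry of at least 10 CPM, the log2 fold changes of SBxPL correlated with those of SBxSB (Pearson r 0.943, Spearman rho 0.946), PLxPL (0.925 and 0.932) and PLxSB (0.947 and 0.951), a description across families fitted together. Of the 62 lead entries called in SBxPL in this fit, 55 were called in the same direction in SBxSB, 53 in PLxPL and 55 in PLxSB, and 0 in the opposite direction. miR-219a-3p changed by -1.65, -1.81 and -1.72 in SBxSB, PLxPL and PLxSB on the log2 scale, and miR-430c-3p by -1.48, -1.36 and -1.29. Of the named entries, 3 rose less in SBxPL at an unadjusted p under 0.05 and did not pass adjustment: miR-129-3p (difference -0.56 ± 0.28), miR-132-5p (-0.44 ± 0.22) and miR-1 (-0.41 ± 0.17, unadjusted p = 0.019 in edgeR). The greatest difference among the named entries, that of miR-146a-3p (-1.22 ± 0.41), holds the library of H1505 C at 150 τs. A p that misses the threshold does not show that the changes were equal.

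Against each other cross-type singly, edgeR called 4 of 783 entries for PLxPL (0.511%, 63 at an unadjusted p under 0.05) and 0 for SBxSB (0%, 36) and PLxSB (0%, 18), counts added after the data were seen, and DESeq2 called 3, 0 and 0. Of the 4 entries, 3 are precursors or names of the muscle miRNA miR-1, which share reads. In this fit the mean of miR-1 went from 34.9 ± 11.8 to 66.4 ± 18.5 CPM in SBxPL and from 26.7 ± 7.08 to 91.3 ± 16.7 CPM in PLxPL (SD, 9 libraries each). The rise was smaller in the hybrid, with log2 fold changes of 0.92 and 1.75 and a difference of -0.83 ± 0.21 (edgeR adjusted p = 0.0812, DESeq2 adjusted p = 0.0214). The other, named after its value was seen, was miR-125b-1-3p, a minor arm with a mean of 5.69 CPM over the 71 libraries, which fell less in SBxPL (-0.53) than in PLxPL (-1.63, difference 1.104, edgeR adjusted p = 0.0812, DESeq2 adjusted p = 0.44). All 4 calls were lost when p-values were adjusted over the 3 cross-types together (smallest adjusted p = 0.244). They were also lost without the batch term and without family H1506 or H1507 of SBxPL or H1509, H1513 or H1516 of PLxPL, where the difference of miR-1 was -0.75 to -0.88.

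**Figure D5:**
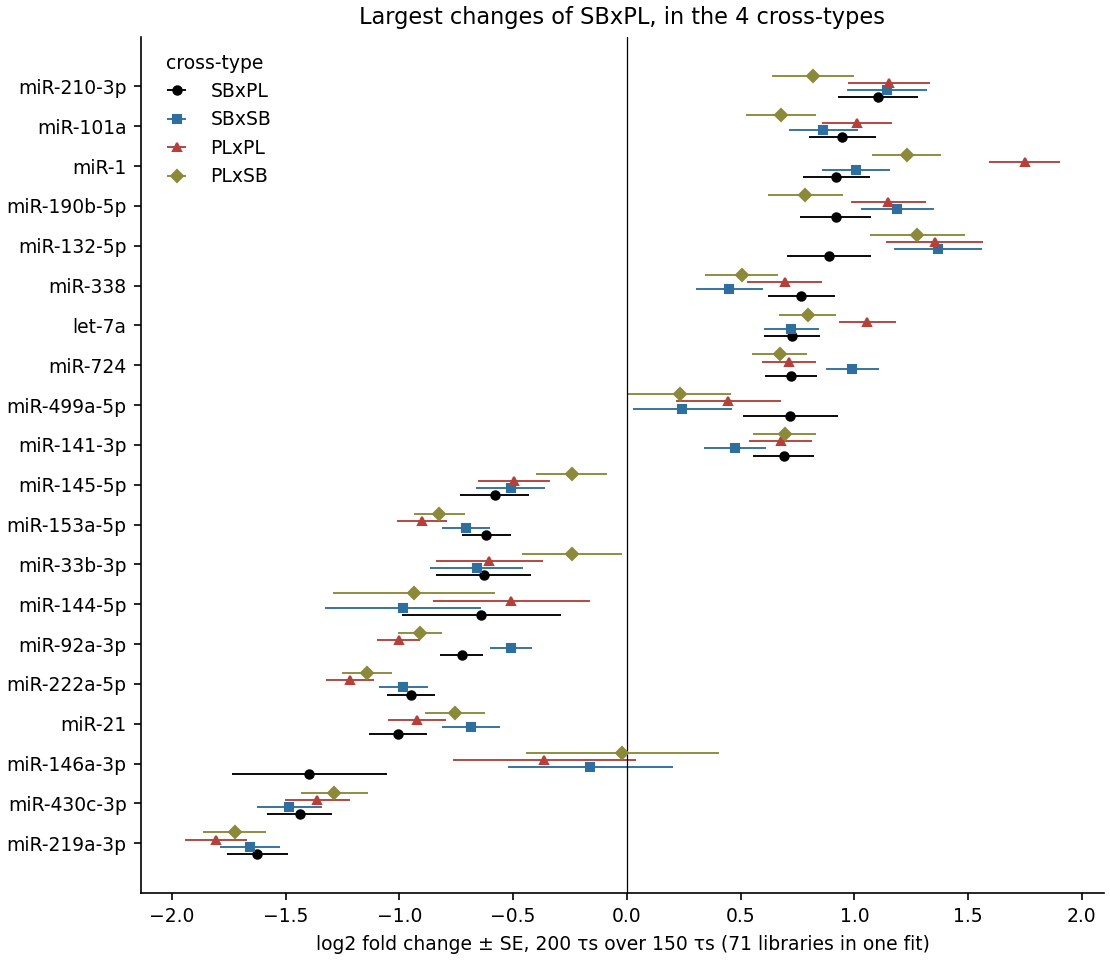
Log2 fold change ± SE from 150 to 200 τs in SBxPL, SBxSB, PLxPL and PLxSB, from 1 fit of 71 libraries, for the 20 entries with the largest changes in SBxPL, taking the most abundant called entry of each family. Changes have the same sign in the 4 cross-types, and miR-146a-3p at -0.02 in PLxSB is nearest to 0.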

How the data were processed

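Small RNA was sequenced from whole Arctic charr embryos. The deposited miRNA table holds raw counts, which the authors made by removing adapters with cutadapt and mapping and quantifying reads with miRDeep2, using the Salvelinus sp. genome and the mature miRNAs and precursors of every species in miRBase. 1 read can count on every entry it matches, and the study's later removal of near-identical homologs is not applied in this table. The mRNA table holds deposited counts per gene, from STAR alignments to the same genome and featureCounts. Tool versions and strandedness were not given in the sources used here. The authors' 72 columns of normalized values were not used, and a deposited list of library codes holds no measurement.

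Only rows named dre- or ssa- with at least 10 reads over 72 libraries were tested, identical rows once. Counts of the 18 SBxPL libraries were fitted in edgeR 4.0.16 (R 4.3.3) with TMM scaling, a quasi-likelihood F-test, batch and time point as terms and Benjamini-Hochberg adjustment, called at 0.1, the study's threshold. A positive log2 fold change is higher at 200 τs. For edgeR fits the SE was taken as the size of the log2 fold change divided by the square root of F. Arm ratios (pseudocount 0.5) were tested in limma 3.58.1, and DESeq2 1.42.0 was an alternative. The mRNA fit had no batch term. Within 288 pairs of libraries of a group, 0 had identical values.

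Members were taken by label, but earlier results of these data were known when they and the lists were chosen. Counts over the lists may therefore depend on these data. Named entries are the 10 largest rises and 10 largest falls among called entries of at least 10 CPM, after keeping for each family only the most abundant such entry, the 10 most abundant families, and the most abundant entry of each listed family. Others are said to be chosen after their values were seen. Libraries of 1 letter were sequenced as 1 batch, and same-lettered libraries of different families deviated together (mean correlation 0.457, lowest 0.112, 36 pairs), so batch was kept as a block. Alternatives changed the scaling, filter, entries, block, tool, threshold and libraries. Tests were run on simulated data with log2 changes of 1, 0.5 and 0. The main test called 85 of 100, 64 of 100 and 14 of 583 entries. The test between cross-types called 87 of 100, 61 of 100 and 5 of 583, and the arm test 10 of 10, 3 of 10 and 1 of 59 precursors. Simulated entries were independent and had no family effect. For the first 2 tests their spread was set below a common estimate from a fit without time point. Recovery in the real data may therefore differ, and may be lower. Embryos of 1 family share parents, and p-values measure the spread between embryos.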

Additional observations from a re-analysis of the deposited data

Results flagged for a closer look

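In 206 groups of 9 libraries (103 named entries at each time point), the highest or lowest library was far from the others by Dixon's criterion in 10, and chance alone flags about 1 in 20 groups. Of these 10, 7 are libraries of family H1505. At 150 τs, H1505 C was highest for miR-146a-3p (82.5 CPM, the others 4.81 to 13.4) and lowest for miR-122 (23.8, the others 49.3 to 101). H1505 B at 150 τs was highest for miR-204-5p (1396 CPM, the others 847 to 1046) and lowest for let-7g (123, the others 194 to 291) and miR-101b (10.2, the others 21.9 to 43.6). H1507 B at 150 τs was highest for miR-128-3p (1068 CPM, the others 581 to 778). At 200 τs, H1505 A was highest for miR-190b-5p (66.4 CPM, the others 44.0 to 53.7) and let-7d-5p (426, the others 247 to 318). Also at 200 τs, H1507 C was lowest for miR-454b (263 CPM, the others 306 to 356) and H1506 B for miR-141-5p (11.5, the others 20.3 to 29.8).

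The change from 150 to 200 τs differed between SBxPL and PLxPL in a test of the difference for 4 entries. It was smaller in SBxPL for 3 entries of miR-1, by log2 differences of -0.81 and -0.83 for its zebrafish precursors and -0.80 for miR-1-3p of salmon, which share reads. For miR-125b-1-3p the difference was 1.104, a smaller fall in SBxPL. These calls were lost when adjusted over the 3 cross-types together.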

How the results depend on the processing

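The number of entries called, 403, stayed within 1.5 times under DESeq2 (375), other size factors (403), library totals (367), no filter (395), a minimum of 10 CPM (316), an adjusted p of 0.05 (355), summed siblings (342) and the fit of all groups (393). All 81 named entries that were called had the same sign under the other scalings. With totals only, the split was 192 higher and 175 lower, and the median of all entries shifted by 0.046. Entries of all species gave 1292 calls (579 higher, 713 lower) and 1 entry per family and arm 147 (76 and 71), both from another number of entries tested. Within batch 1 alone 298 were called (173 higher, 125 lower), within batch 2 212 (104 and 108) and within batch 3 172 (71 and 101).

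The pairing by batch was in the model. With no replicate block, the batch term left out, 258 entries were called (113 higher, 145 lower), and 24 named calls were lost. With a replicate block by family added to batch, 401 were called, and 1 named call was lost and 1 gained. Leaving out 1 family gave 321 to 344 calls (144 to 166 higher, 169 to 183 lower), and leaving out 1 library 378 to 398 (175 to 185 and 202 to 217). For arm ratios, leaving out 1 family gave 30 to 38 wider and 10 to 12 narrower, the fit with no replicate block 27 and 8, and a minimum of 100 reads in both arms, which left 29 precursors, 14 and 6. Within batches 1, 2 and 3, 18, 16 and 15 were wider, and 9, 2 and 5 were narrower. The cause was not tested. The difference from the mean of the other cross-types, and that from SBxSB or PLxSB singly, was called for 0 entries and the 4 mRNAs for 4 in every setting run. The difference from PLxPL singly was called for 4 entries, for 3 under DESeq2 or a minimum of 10 CPM, for 0 with no replicate block or an adjusted p of 0.05, and for 0 to 4 with 1 family left out.

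Over 37 settings, 3803 values of single entries kept their direction and side of the threshold, 218 lost the call, 27 gained it and 5 had the opposite sign, each within 1 batch: miR-146a-3p (0.0169), miR-19b-3p (0.104) and miR-206-5p (0.0848) in batch 1, miR-129-3p (-0.209) in batch 2 and miR-99 (0.00844) in batch 3. The cause was not tested. Counts of scarce entries limit the precision: 10 CPM was 23.5 counts in a library of median sum, and 41 entries had under 10 reads in all 18 libraries. Zebrafish and salmon names, letters and precursors of 1 family share reads, so counts of entries are not counts of independent miRNAs.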
